A study of Mus musculus with 435 samples.

Results

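Late weeks of the low-fat diet were compared with early weeks in the liver of A/J mice, an inbred laboratory strain. The arrays were chosen by their labels: A/J, low-fat diet, weeks 9, 10 and 11 as late and weeks 1 and 3 as early. Those labels cover 49 arrays, of which 48 were used out of 435 in the series, 20 early and 28 late. The array left out, from week 10, had a Pearson r of -0.0341 to the per-probe median of all arrays, below the minimum of 0.15 set for use. Each array carried liver total RNA of an A/J mouse on the low-fat diet, labelled with Cy5, against a Cy3-labelled reference common to the series. The reference was RNA pooled from 10 tissues of C57 mice, with 26% liver, 26% kidney, 13% brown fat and 12% skeletal muscle as its main parts. The same weeks of C57 low-fat (49 arrays), A/J high-fat (49) and C57 high-fat (48) mice served for comparison, all against that reference. No transgene, deletion or drug is named in the labels, and they give no age, sex or hybridisation date, nor which arrays share a mouse.

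The liver makes most plasma proteins, among them carriers, clotting factors and complement, and clears foreign compounds through cytochrome P450 and flavin monooxygenase enzymes. Mouse liver also makes major urinary proteins under the control of growth hormone and rebuilds its fat-making enzymes when the diet changes. A time course on 1 diet holds the animals' growth and ageing together with time on that diet, so the comparison asks which transcripts differ between its ends and not which of these moved them.

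Values are log2 ratios of liver over the reference, centred on each array's median, so 0 is the median probe of an array. All 17 measured genes of a list typical of hepatocytes lay above 0 both early and late, with a median level of 0.79 early and 1.07 late. Liver genes outside that list did not all do so. Hrg, Asgr2 and F10, described further on, were at -1.54, -1.11 and -1.22 early and at 0.34, 0.91 and 0.57 late. Of 8 markers of the other tissues in the reference, 2 lay above 0 early and 1 late, and the muscle actin gene Acta1 was at -2.82 early and -3.35 late. So far as these markers go, the labelled tissue was present at both ends. Measured probes ran from 7281 to 12958 on early arrays and from 5868 to 14539 on late arrays. The spread of log2 ratios differed between weeks: the median interquartile range of an array was 1.14 at week 1, 0.49 at week 3, 0.67 at week 9, 1.10 at week 10 and 1.20 at week 11. Signal intensities are not in the files used here, and what is known of the precision comes from the spread between arrays and between weeks.

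Late in the diet 227 probes were higher and 81 were lower than early, out of 8324 tested, by limma on weekly means with a Benjamini-Hochberg adjusted p under 0.05. These are 3.7% of the probes tested, 2.73% higher and 0.973% lower. The unit was the week, with 2 early and 3 late weekly means, and the spread between weeks was pooled over the 4 sets of strain and diet. These sets share the same weeks and the same reference. The fit took their weekly means as independent, which may overstate the evidence for the calls. With A/J low-fat weekly means alone far fewer probes were called, as given at the end. For all 308 probes the 3 late weekly means lay on 1 side of both early means, against 19.6% of all probes with late means above and 16.5% with late means below. The calls were made on these same means, so their separation largely follows from the call and is no added support. The called probes stand for 307 genes. The count rests on single weeks: leaving out week 1 gave 21, week 10 gave 53 and week 11 gave 66, while leaving out week 3 gave 239 and week 9 gave 222. Under quantile normalization 1055 probes were called, 589 higher and 466 lower, so that 55.8% were higher in place of 73.7%. After scaling each array to a common spread 1060 were called, 62.9% of them higher, and with week as a random block on single arrays 420 were called, 53.3% of them higher.

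The 10 largest rises among called probes belong to genes of different roles. Azin1, a regulator of polyamine synthesis, had a difference of 1.91, larger than some of these, and did not pass (adjusted p = 0.065). A second Azin1 probe gave 0.14 and did not pass either. Zfp131, a zinc finger transcriptional regulator, had weekly means of -2.62 and -1.21 early and of 0.99, 1.08 and 0.73 late. Its late minus early difference was 2.85 (limma SE 0.40, adjusted p = 0.0028), a 7.23-fold higher ratio. Its arrays overlapped: the highest early array, of week 1, stood at 1.75, while the early median was -2.55 and the late median was 0.86. Lgmn, the lysosomal protease legumain, ran from -2.91 through a median of -1.09 to -0.27 on 12 early arrays, and from -0.14 through 1.06 to 2.46 on 27 late arrays. Among arrays with a value, no late array of Lgmn overlapped the early ones, and its rise was 2.26 (SE 0.29, adjusted p = 0.0022). Of 20 early and 28 late arrays, Lgmn had values on 12 and 27, Zfp131 on 11 and 28. Deptor had them on 13 and 28 and Ipmk on 12 and 28, so early values were missing more often. Il4 (18 and 21), Asgr2 (19 and 20) and Txn1 (20 and 23) lacked values more often late.

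Bnip3, a mitochondrial protein of the response to low oxygen and of mitophagy, had weekly means of -0.51 and -0.72 early and of 1.79, 1.08 and 1.77 late. Of its 24 late arrays 22 lay above every early array, and the rise was 2.16 (SE 0.30, adjusted p = 0.0025). Il4, a cytokine of T cells, rose by 2.05 from an early level of -2.33 to a late level of -0.29, still below the median probe. Deptor, an inhibitor of the growth kinase mTOR, rose by 1.85, and 26 of its 28 late arrays lay above every early array. A second Deptor probe gave 0.35 with an adjusted p of 0.24 and did not pass. Ipmk, an inositol phosphate kinase, rose by 1.84 (SE 0.49, adjusted p = 0.045) and was the least certain of the 10, since it passed in 1 of the 5 fits that leave out a week.

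Hrg and Asgr2 are liver genes among these rises. Hrg encodes histidine-rich glycoprotein, a plasma protein secreted by hepatocytes. Its 19 early arrays ran from -3.53 through a median of -1.51 to 0.05, and its 28 late arrays from -1.88 through 0.40 to 1.42. Late arrays of Hrg were higher, 23 of them above every early array, and the weekly means moved from -1.50 and -1.58 to 0.40, 0.39 and 0.22, a rise of 1.88 (SE 0.27, adjusted p = 0.0030). Asgr2 encodes a subunit of the asialoglycoprotein receptor, by which hepatocytes take up glycoproteins that have lost sialic acid. Its weekly means were -1.06 and -1.16 early and 0.70, 1.25 and 0.77 late, a rise of 2.02 (SE 0.30, adjusted p = 0.0035), and 12 of 20 late arrays lay above every early array. Both genes lay below the median probe early and above it late. The 250 bases before their starts, and before that of the clotting factor gene F10 described further on, are shown because all 3 are liver genes that rose, with motif matches in capitals. RefSeq, build GRCm38.p6, + strand, gives Hrg at chr16:22950822-22951071, Asgr2 at chr11:70092394-70092643 and F10 at chr8:13037058-13037307.
Hrg: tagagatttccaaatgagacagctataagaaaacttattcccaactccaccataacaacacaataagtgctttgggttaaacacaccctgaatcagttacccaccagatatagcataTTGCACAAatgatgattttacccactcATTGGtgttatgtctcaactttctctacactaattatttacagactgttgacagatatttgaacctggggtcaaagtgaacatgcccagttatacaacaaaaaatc
Asgr2: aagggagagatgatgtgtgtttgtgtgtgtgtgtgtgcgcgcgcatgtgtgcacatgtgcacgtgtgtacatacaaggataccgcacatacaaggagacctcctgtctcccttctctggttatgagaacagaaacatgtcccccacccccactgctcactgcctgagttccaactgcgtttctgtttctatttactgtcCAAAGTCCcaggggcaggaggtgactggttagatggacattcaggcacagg
F10: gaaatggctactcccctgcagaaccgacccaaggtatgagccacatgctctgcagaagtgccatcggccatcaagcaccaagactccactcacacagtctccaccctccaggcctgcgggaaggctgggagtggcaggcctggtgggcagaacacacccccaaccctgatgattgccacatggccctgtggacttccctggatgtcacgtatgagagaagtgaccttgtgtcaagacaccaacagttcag
In the Hrg window the capitals mark a C/EBP motif, TTGCNNAA, that begins 133 bases before the start, and, nearer to it, the reverse of CCAAT. In the Asgr2 window they mark CAAAGTCC, which is the searched HNF4 site CAAAGTCCA without its last base, at 51. The base that follows it in the window is c, so the full site is absent there. The F10 window holds none of the 6 motifs searched. CCAAT is a general promoter element. On either strand, TTGCNNAA was found in 9.56% of 32851 promoter windows of the same length, CCAAT in 33.8% and CAAAGTCC in 1.20%. These 3 motifs were added after the windows had been read. The motifs searched first, TATAAA (12.4% of windows), GTTAAT (6.43%) and CAAAGTCCA (0.384%), are in none of the 3 windows. CAAAGTCC overlaps CAAAGTCCA.

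**Figure D1:**
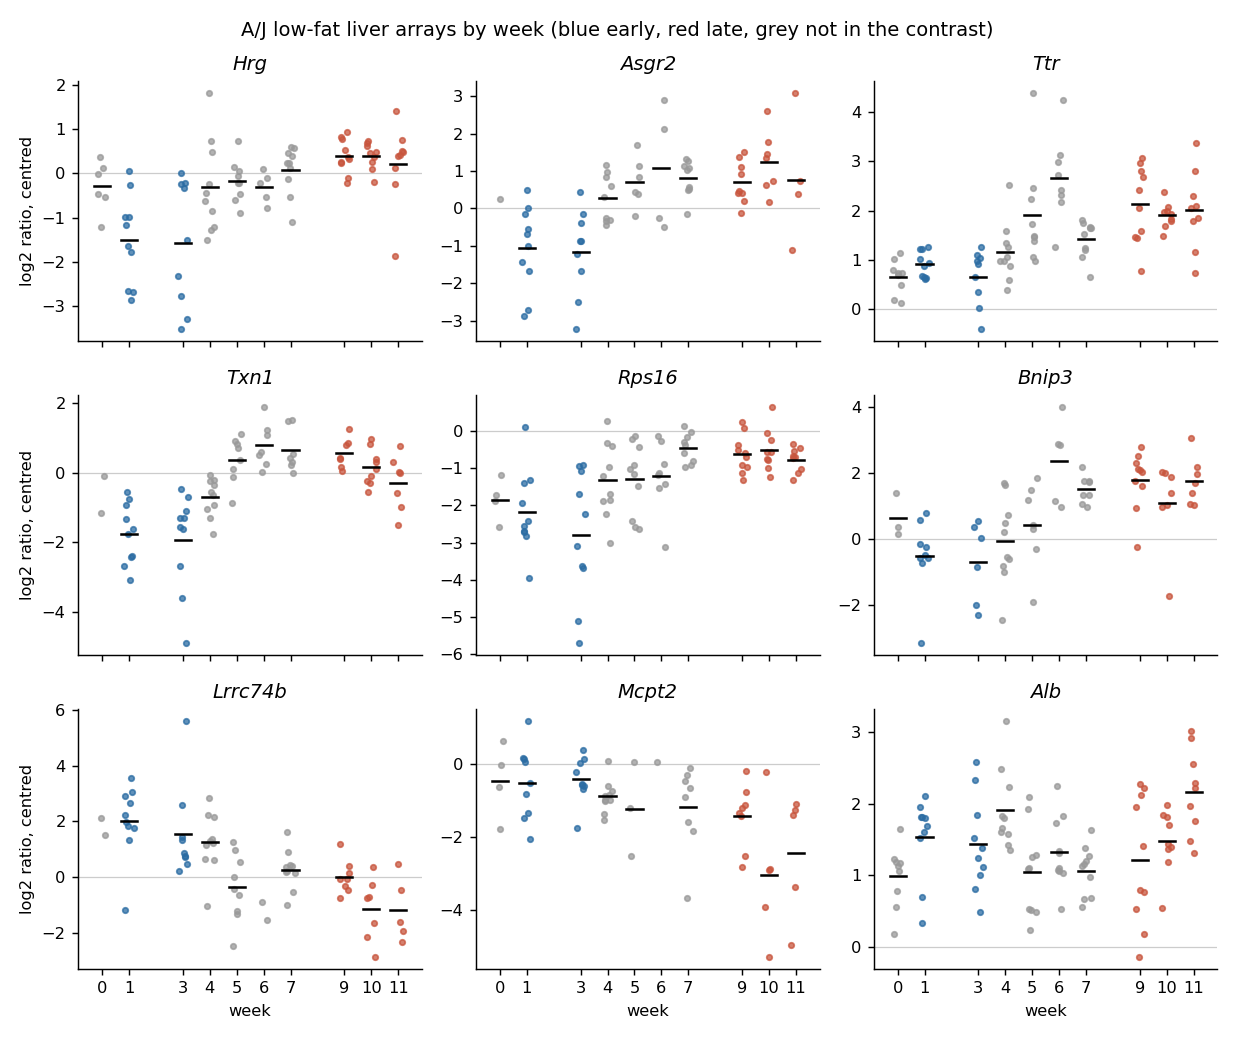
Log2 ratio of liver over reference, centred per array (vertical axis), by week (horizontal axis) for 9 genes in A/J low-fat mice; each point is an array, bars are weekly means of at least 3 arrays, blue is early, red is late and grey weeks are outside the comparison. Hrg, Asgr2, Ttr, Txn1, Rps16 and Bnip3 lie higher in the red weeks, Lrrc74b and Mcpt2 lie lower, and Alb overlaps throughout.

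Plasma carriers did not move together. Ttr, which encodes the thyroxine and retinol carrier transthyretin, was the 1 gene of the 17 on the hepatocyte list that rose. Its 19 early arrays ran from -0.40 through 0.91 to 1.27 and its 28 late arrays from 0.74 through 1.99 to 3.38, with 25 late arrays above every early one. The rise was 1.23 (SE 0.19, adjusted p = 0.0047), and it passed in all 5 fits that leave out a week. Albumin, Alb, had weekly means of 1.53 and 1.43 early and of 1.21, 1.48 and 2.17 late, and its difference of 0.14 (SE 0.25, adjusted p = 0.79) did not pass and takes either sign across scalings. Transferrin, Trf, differed by 0.35 (SE 0.19, adjusted p = 0.29) and Apoe, an apolipoprotein, by -0.23 (SE 0.43, adjusted p = 0.79). Apoa1, the main protein of high-density lipoprotein, was at 1.81 and 0.47 early and at 1.60, 2.52 and 2.33 late, and its difference of 1.01 (SE 0.45) did not pass, with an adjusted p of 0.20. The median change of the hepatocyte list was 0.11 against 0.04 over 7878 genes, and -0.04 after scaling arrays to a common spread.

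Acute-phase genes, whose plasma products change in inflammation, had a median of 0.44, the highest of any list with at least 5 members; after scaling to a common spread it was 0.33, below the 0.40 of foreign-compound metabolism. Of 13 measured 3 rose and none fell, where 2.78% of all genes rose and 0.977% fell. The same shares apply beside every other list count here, and no test set a list against all genes. Itih3, a heavy chain of the inter-alpha-trypsin inhibitors, had weekly means of -0.31 and -0.53 early and of 0.60, 0.71 and 0.72 late. Its rise was 1.09 (SE 0.18, adjusted p = 0.0070). Saa4, a constitutive serum amyloid A protein, rose by 0.83, and 23 of its 28 late arrays lay above every early one. Itih4 rose by 0.80 (adjusted p = 0.040), but none of its late arrays lay above the highest early array. Itih3 passed in all 5 fits without a week, Itih4 in 1 and Saa4 in none, and with no centring the list had 1 riser.

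Complement and coagulation genes had 3 risers and no faller among 16, where 2.78% of all genes rose and 0.977% fell. F10, clotting factor X, had an early range of -3.46 to 0.90 around a median of -1.20 on 14 arrays and a late range of -0.36 to 2.21 around 0.45 on 21 arrays. Its rise was 1.79 (SE 0.37, adjusted p = 0.021), with overlap of the arrays. C2, a complement protease, rose by 1.29 (adjusted p = 0.047) and C1ra, another, by 0.78 (adjusted p = 0.020). The list's other members spread to both sides, from -1.05 upward, and its median was 0.21. C1ra passed in 3 of 5 fits without a week, F10 in 2 and C2 in none. Under quantile normalization 4 of the list rose and 1 fell.

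Enzymes of foreign-compound metabolism rose in 3 of 26 cases and fell in none, with a median of 0.30 and 20 of 26 above 0. Over all genes 2.78% rose and 0.977% fell, and 4217 of 7878 changes lay above 0. The list had 1 riser with no centring, 2 with centring on the tested probes, 3 under quantile normalization and 4 with a common spread. Fmo5, a flavin monooxygenase, went from weekly means of -0.84 and -1.14 to 0.34, 0.12 and 0.22, a rise of 1.21 (SE 0.23, adjusted p = 0.014). Cyp2c29, a cytochrome P450, rose by 1.14 (SE 0.25, adjusted p = 0.027), from an early array median of -0.61 to a late one of 0.61. Cyp2f2, a P450 of the periportal liver, rose by 1.18 (SE 0.30, adjusted p = 0.040), with 13 of 26 late arrays above every early one. Cyp2f2 passed in 1 of 5 fits without a week, and not with week as a random block (adjusted p = 0.084); Fmo5 and Cyp2c29 each passed in 3 of the 5. Cyp3a11 and Cyp2e1, P450 genes on the hepatocyte list, differed by -0.06 and -0.08 and did not pass.

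Growth-hormone and sex-biased liver genes had 2 risers among 10, where 2.78% of all genes rose. Ghr, the growth hormone receptor, had weekly means of -1.84 and -1.50 early and of 0.08, -0.52 and -0.63 late. It rose by 1.31 (SE 0.34, adjusted p = 0.044), and 15 of 24 late arrays lay above every early array. Mup5, a major urinary protein, rose by 0.99 (adjusted p = 0.043), while Mup3 differed by 0.67 with an adjusted p of 0.070. Probes for these near-identical urinary protein genes may read several of them, so the 2 are not independent. Neither Ghr nor Mup5 passed in any fit that left out a week, and the list had 0 calls with no centring or with centring on the tested probes.

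In the fit used for the calls, genes of fat and fuel metabolism moved singly. Scd1, which puts the double bond into newly made fatty acids, was the only riser of 15 fat-synthesis genes, with weekly means of -0.67 and -0.46 early and of 0.44, -0.10 and 0.48 late. The rise was 0.83 (SE 0.21, adjusted p = 0.039), and it passed in 1 of 5 fits without a week. The other single members past the threshold in their lists, picked out after their values were seen, were Slc27a5, which activates bile acids (0.71 higher, 1 of 7), Pgk1 of glycolysis (0.67 higher, 1 of 12) and Mat1a, which makes S-adenosylmethionine (1.01 higher, 1 of 12). Acads, the short-chain acyl-CoA dehydrogenase of fatty acid oxidation, fell by 0.99 and was the 1 called gene of 20 in its list. That list had 0 calls with no centring or centring on the tested probes. Under quantile normalization or a common spread 1 of it rose and 2 fell. In the list of Mat1a 1 rose and 2 fell under quantile normalization, and 2 rose and 2 fell with a common spread. The fat-synthesis list had 0 calls with no centring. None of 3 cholesterol-synthesis genes passed.

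Ribosomal protein genes of the cytosol rose in 4 of 42 cases and fell in none, where 2.78% of all genes rose and 0.977% fell. The count varied with scaling: 9 rose and 3 fell under quantile normalization, 11 and 2 with a common spread, and 1 rose with no centring. Rps16 had weekly means of -2.16 and -2.80 early and of -0.62, -0.51 and -0.77 late. Its rise of 1.85 (SE 0.24, adjusted p = 0.0022) passed in all 5 fits without a week, although only 2 of 28 late arrays lay above the highest early array, which stood at 0.10. Rps4x rose by 1.39, Rpl3 by 0.90 and Rps15 by 0.65, of which Rpl3 passed in 2 of those fits and Rps4x in none. The list's median was 0.27, and its members ran from -0.83 to 1.85. Many ribosomal protein genes have near-identical processed copies, which a probe may also read.

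Mitochondrial ribosomal protein genes had 1 riser and 3 fallers among 43, against 2.78% rising and 0.977% falling over all genes. Under quantile normalization or a common spread 4 rose and 6 fell, and with no centring 1 rose and 1 fell. Mrpl50 moved from weekly means of -0.09 and -0.20 to 1.10, 1.52 and 1.39, a rise of 1.48 (SE 0.23, adjusted p = 0.0047) that passed in all 5 fits without a week. Mrps16 fell by 0.74, Mrpl46 by 0.72 and Mrps6 by 0.85. Mrps16 passed in none of those 5 fits and Mrpl46 in 1, and Mrpl46 did not pass with week as a random block (adjusted p = 0.071). Among 53 genes of oxidative phosphorylation 2 rose, a share near the 2.78% of all genes, and the count was 0 with no centring, 5 under quantile normalization and 8 with a common spread. Atp5md, a small subunit of ATP synthase, rose by 1.17 and Uqcrq, of complex III, by 0.93, in 2 and none of the 5 fits without a week. Atp5g1, a proton-ring subunit, differed by 0.65 with an adjusted p of 0.069.

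Antioxidant genes had 2 risers among 14, where 2.78% of all genes rose. Txn1, thioredoxin, had weekly means of -1.75 and -1.92 early and of 0.56, 0.16 and -0.28 late, and 19 of its 23 late arrays lay above every early one. Its rise was 1.98 (SE 0.31, adjusted p = 0.0045) and passed in all 5 fits without a week. Prdx1, a peroxiredoxin that thioredoxin reduces, rose by 0.84 (adjusted p = 0.031) and passed in 1 of those fits. Gpx3, the plasma glutathione peroxidase, had weekly means of -0.13 and -0.32 early and of -1.30, -1.23 and -1.15 late, a difference of -1.01 that did not pass (adjusted p = 0.069).

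Of 21 chaperone genes 1 rose by the list's own probe choice: Hspa5, the chaperone BiP of the endoplasmic reticulum, at 1.22 (adjusted p = 0.043). That call is lost with no centring or centring on the tested probes, and under quantile normalization 2 of the list rose and 2 fell. Canx, the lectin chaperone calnexin, rose by 0.83 (adjusted p = 0.049) on its probe with the smaller p, while its other probe gave 0.36 and did not pass. Hspa8, the constitutive cytosolic chaperone, differed by -0.96 (adjusted p = 0.076). Interferon and antigen-presentation genes had 2 risers among 16, where 2.78% of all genes rose. They were B2m, the light chain of class I molecules, at 1.45 (adjusted p = 0.0499) and Oasl2, an interferon-induced gene, at 0.73. Oasl2 did not pass with week as a random block (adjusted p = 0.11), and B2m passed in no fit without a week. Irf7, which drives interferon genes, differed by 0.57 and did not pass.

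**Figure D2:**
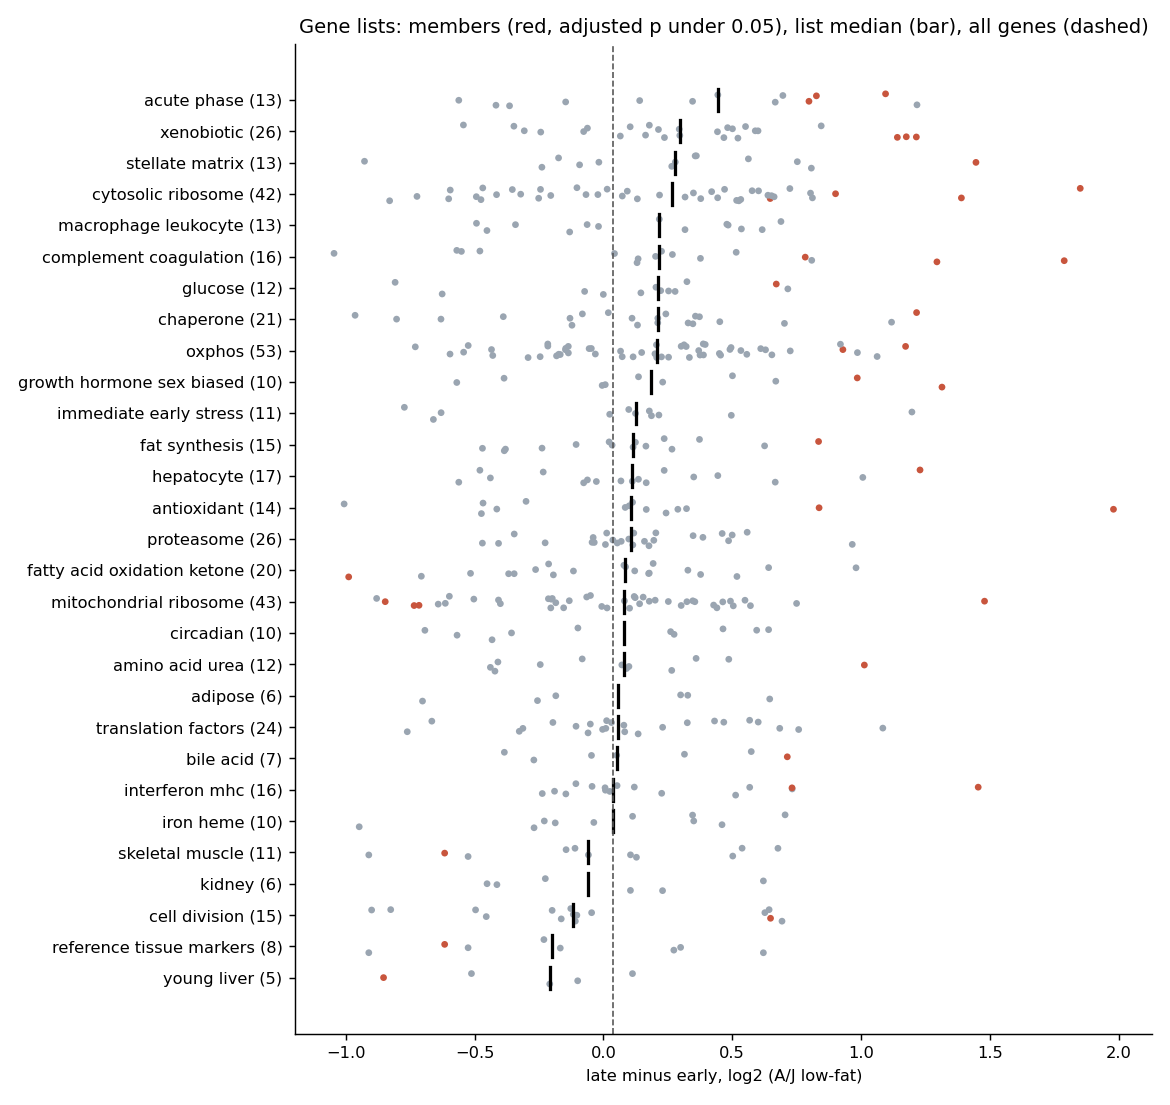
Late minus early difference in log2 (horizontal axis) of each measured member of 29 gene lists with at least 5 members (vertical axis, number of members in brackets), with members past an adjusted p of 0.05 in red, the list median as a black bar and the median of all genes as a dashed line. The acute-phase list has the median farthest from 0, at 0.44, and at most 4 members of any list are red.

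Markers of other cell types gave few calls. Of 13 genes of stellate cells and matrix 1 rose, Col6a2, a collagen VI chain, by 1.45 from an early level of -1.92. Under quantile normalization or a common spread 2 of that list rose and 1 fell. None of 13 macrophage and leukocyte markers, 3 endothelial, 4 bile duct, 2 red cell, 6 adipose, 6 kidney and 4 pancreas markers passed. With a common spread 2 of the macrophage and leukocyte and 2 of the pancreas markers rose, and under quantile normalization 1 pancreas marker rose and 1 fell. Mb, myoglobin, fell by 0.62 and was the 1 gene of 11 muscle markers that passed. That call was lost with no centring or centring on the tested probes. In whole liver, fewer cells of a type and less RNA per cell cannot be told apart. Gpc3, a glypican of the young liver, fell by 0.85, the 1 call among 5 such genes, and Mcm7 of DNA replication rose by 0.65, the 1 call among 15 cell-division genes. Cell division had 0 calls with no centring, while 3 rose and 1 fell under quantile normalization or a common spread. No gene passed among 10 circadian, 11 immediate-early, 10 iron and heme, 26 proteasome and 24 translation-factor genes. Under quantile normalization 5 translation factors rose and 1 fell, with a common spread 4 rose and 1 fell and 3 proteasome genes rose, and each of the other 3 lists had 1 or 2 calls under these scalings.

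The 10 largest falls are likewise those among called probes. Cdh3, a cadherin, at -1.61 and Cdk11b, a kinase, at -1.33 did not pass, and another Cdk11b probe gave 0.26. Lrrc74b, a leucine-rich repeat gene, had weekly means of 2.01 and 1.55 early and of 0.01, -1.15 and -1.17 late. It fell by 2.55 on the log2 scale (SE 0.62, adjusted p = 0.036), and 6 of 20 late arrays lay below every early array. Mcpt2, a mast cell protease, went from -0.52 and -0.42 to -1.42, -3.04 and -2.43, a fall of 1.83 on the log2 scale with SE 0.38. Hsf2bp, a meiosis gene, fell by 1.71, and 12 of 19 late arrays lay below every early array. Tcp10b, a testis gene, had late arrays from -3.11 through -1.86 to 0.26 against early arrays from -0.63 through 0.09 to 0.52, and 20 of 25 late arrays lay below all early ones.

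Cbln1, a synapse organiser of the cerebellum, fell by 1.46, with 16 of 19 late arrays below every early one. Fut1, a fucosyltransferase, fell by 1.58 but did not pass with week as a random block (adjusted p = 0.13). Ptpn21, a phosphatase, fell by 1.46, Foxo4, a forkhead factor, by 1.31 and Prom2, a membrane protein of epithelia, by 1.28. Arfgap3, a regulator of Golgi transport, fell by 1.26 on 1 probe, and its other probe gave -0.43 with an adjusted p of 0.32. None of these 10 falls passed in all 5 fits without a week, and Foxo4, Prom2 and Arfgap3 passed in none of them. Of the 10 rises, Lgmn, Bnip3, Asgr2, Txn1, Hrg, Deptor and Rps16 passed in all 5, as in every other setting run for them.

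The levels of the called probes were followed through the weeks between. The probes called higher had a median level of -0.63 at week 1, -0.43 at week 3 and -0.15 at week 4, then 0.20 at week 5, 0.23 at week 6 and 0.19 at week 7, and 0.27, 0.26 and 0.45 at weeks 9, 10 and 11. Their median thus moved up from week 1 through week 4 as well as between weeks 4 and 5. At week 0 it was -0.37, above its values at weeks 1 and 3. That median rests on the 147 of these probes with a weekly mean at week 0, and the difference was not tested. The probes called lower stood at 0.29, 0.13 and 0.12 at weeks 1, 3 and 4, then at -0.56 at week 5 and -0.86 at week 11. At week 0 the 67 of them with a weekly mean stood at 0.04. For Hrg, week 4 lay 1.23 above weeks 1 and 3, for Asgr2 1.39 and for Zfp131 2.04, while for Lrrc74b it lay at -0.53. Weeks 4 to 7 were not used to choose these probes. Between weeks 5 to 7 and weeks 1 and 3, 1177 of 8324 probes passed (14.1%), 493 higher (5.92%) and 684 lower (8.22%), in a limma fit of weeks 1 to 11. Between weeks 9 to 11 and weeks 5 to 7, 2 passed (0.024%), both lower: Acta1 at -1.44 and Hsp90b1, a chaperone of the endoplasmic reticulum, at -1.46. Leaving out week 7 gave 632 and week 9 gave 89, and leaving out week 5, 6, 10 or 11 gave 0. Of the comparison with weeks 1 and 3, leaving out week 1 kept 59, week 5 gave 662 and week 6 gave 293. Week 4 against weeks 1 and 3 gave 0 calls, with 396 probes at an unadjusted p under 0.05, and weeks 5 to 7 against week 4 gave 27 calls, 6 higher and 21 lower. Both set a single weekly mean, that of week 4, against the others.

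A straight line over 9 weeks was past the threshold for 3 probes (0.036%). Lgmn and Sult4a1, a sulfotransferase of the brain, rose (0.024%) and Lrrc74b fell (0.012%). Leaving out week 1, 3, 4, 7, 9 or 11 gave 0 and leaving out week 6 gave 17. Across probes, weekly means correlated at 0.65 to 0.77 among weeks 1, 3 and 4 and at 0.45 to 0.83 among weeks 5, 6, 7, 9, 10 and 11, and at 0.31 to 0.69 between these sets of weeks. All 10 arrays of week 8 had an r to the median array of 0.0465 to 0.0772, below the minimum, and were not used. These weekly means share the reference, and probes are not replicates.

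**Figure D3:**
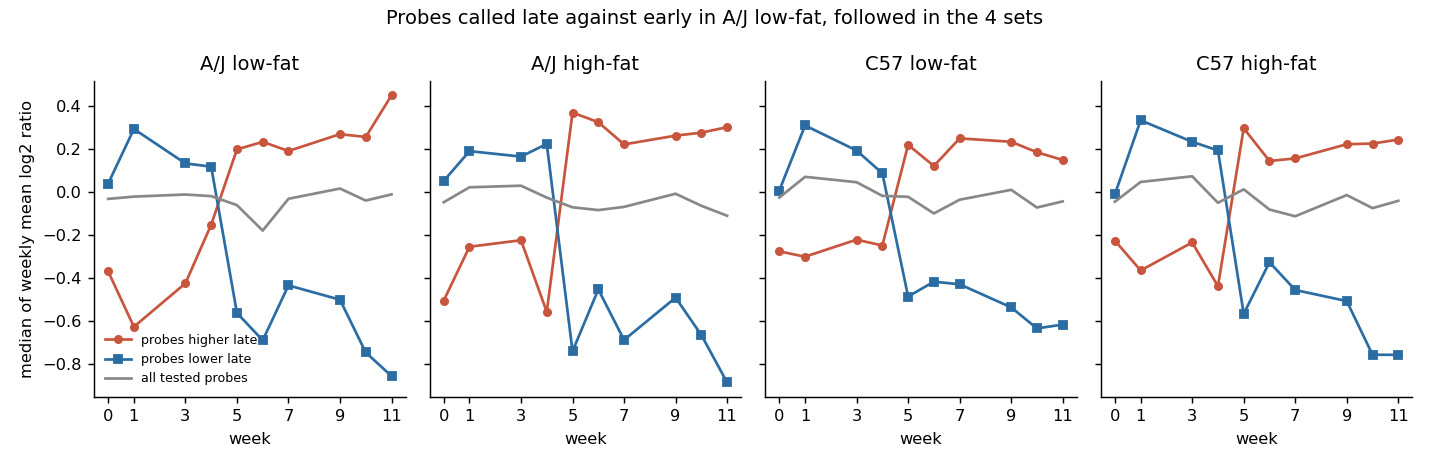
Median weekly mean log2 ratio (vertical axis) by week (horizontal axis) of the 227 probes called higher late (red circles) and the 81 called lower late (blue squares) in A/J low-fat mice, beside all tested probes (grey), in each set of strain and diet. In all 4 panels the red line lies below the blue at weeks 0 to 4 and above it from week 5, although the probes were chosen in the first panel only.

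The same probes were followed in the other sets of strain and diet. There too their median crossed from below 0 at week 4 to above 0 at week 5, but the course before differed, and no test compared the courses. In C57 low-fat mice the probes called higher in A/J low-fat had a median of -0.22 at week 3, -0.25 at week 4 and 0.22 at week 5. The values were -0.22, -0.56 and 0.37 in A/J high-fat mice and -0.24, -0.44 and 0.30 in C57 high-fat mice. In each of these sets week 4 lay lower than week 3, by less in C57 low-fat mice. Tested alone in the same fit, late against early gave 118 calls in C57 low-fat, 394 in A/J high-fat and 486 in C57 high-fat. Of the 308 probes, 301 changed in the same direction in C57 low-fat and 305 in A/J high-fat. Over all 8324 probes tested, the change correlated at 0.76 with that in C57 low-fat and at 0.77 with that in A/J high-fat. The agreement is thus not confined to the called probes, and the share of all probes with the same direction was not counted. All sets share the reference and the weeks. The labels do not say whether arrays of a week were hybridised together or whether 1 preparation of the reference served all weeks. Time on the diet, age and anything else that differs between weeks 1 to 4 and weeks 5 to 11, in either channel, cannot be told apart.

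No probe's late minus early change was shown to differ between A/J low-fat and C57 low-fat mice. By limma's contrast of contrasts 0 of 8130 probes passed (0%), with 171 at an unadjusted p under 0.05 and a smallest adjusted p of 0.80. Against A/J high-fat mice 0 of 8130 passed (0%), with 200 at an unadjusted p under 0.05. These counts were 0 under every other setting run for them. The fit took the weekly means of the sets as independent and did not pair them by week, although the sets share weeks. Effects of a week common to the sets are then left in the SE of a gap, so differences may be missed. Hrg rose by 1.88 in A/J low-fat mice. Its late minus early values were 0.95 in C57 low-fat (adjusted p = 0.088), 0.94 in A/J high-fat (adjusted p = 0.054) and 0.95 in C57 high-fat mice (adjusted p = 0.049). The gap from C57 low-fat was 0.93 (SE 0.38) and from A/J high-fat 0.94 (SE 0.38). Fmo5 rose by 1.21 against a difference of 0.11 in C57 low-fat, a gap of 1.10 (SE 0.32), and Saa4 by 0.83 against 0.00, a gap of 0.82 (SE 0.26). Neither gap passed the adjustment. Hspa5 rose by 1.22 against 0.09 in A/J high-fat, a gap of 1.12 (SE 0.44) that did not pass either. Lrrc74b was lower late in all 4 sets, at -2.55 in A/J low-fat, -2.73 in C57 low-fat, -3.41 in A/J high-fat and -3.13 in C57 high-fat. A change that misses the threshold here is not shown to be alike in the sets.

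**Figure D4:**
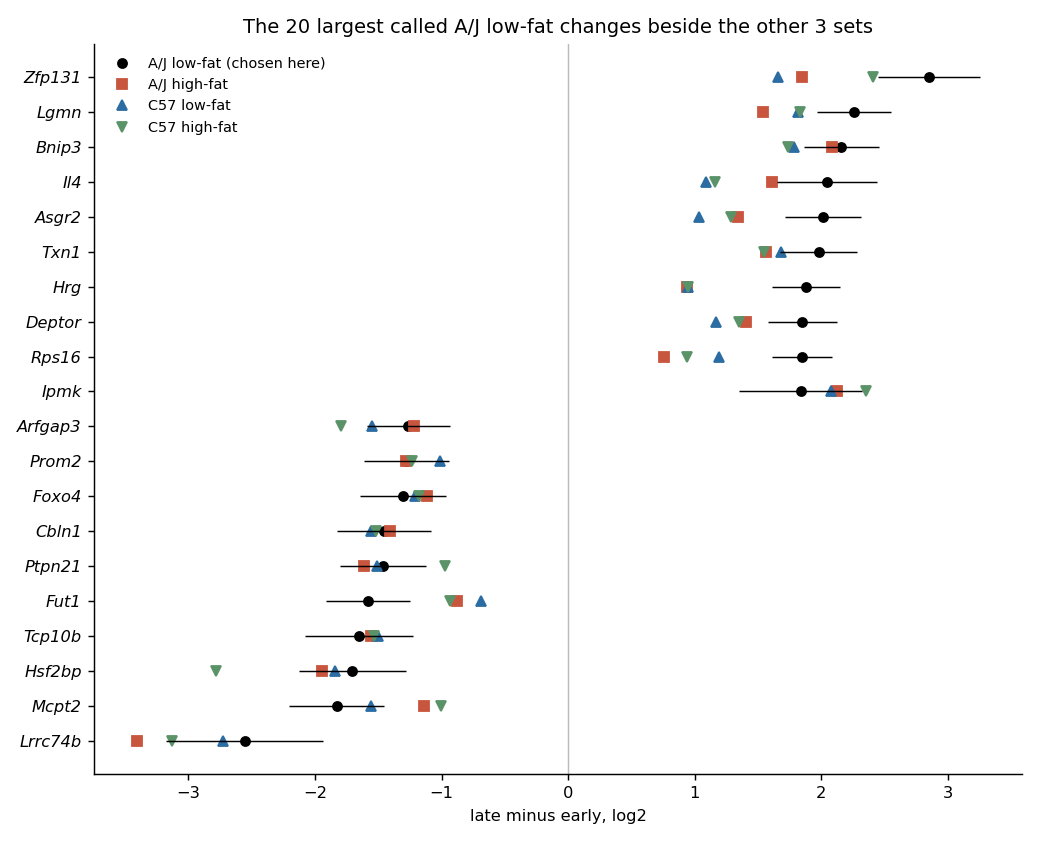
Late minus early difference in log2 (horizontal axis) for the 10 largest rises and 10 largest falls among called probes in A/J low-fat mice (black, with limma SE), which were chosen on those values, beside the same difference in the other 3 sets of strain and diet. Every gene shown lies on the same side of 0 in all 4 sets.

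Most gene names here rest on 1 probe. Of the genes with 2 tested probes of different accession, 364 in all, the late minus early changes of the 2 probes correlated at 0.053 across genes, and 199 pairs had the same sign. Their levels correlated at 0.16 early and 0.13 late. For the 13 genes with 2 tested probes of the same accession, the changes correlated at 0.23, and 6 pairs had the same sign. Levels of those 13 pairs correlated at 0.59 early and 0.25 late. Among the 364 pairs of different accession 26 had at least 1 called probe, 18 of them with the same sign in both and 1 with both called. That 1 is Xpo7, a nuclear export receptor, whose probes were called in opposite directions, at -1.12 and 0.73. The calls counted above are calls of probes.

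**Figure D5:**
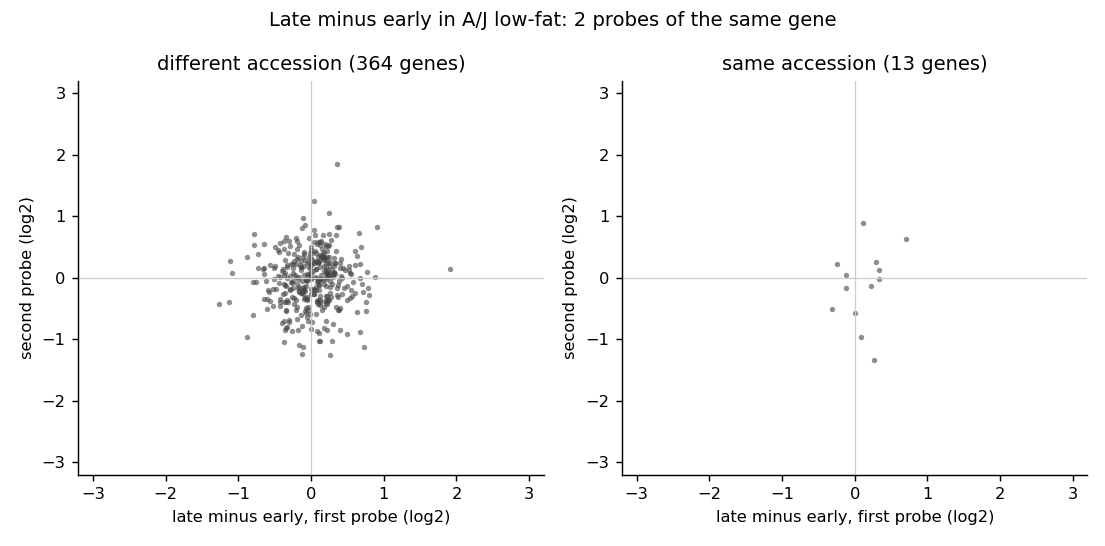
Late minus early difference in log2 for 2 probes of the same gene in A/J low-fat mice, with the more often measured probe on the horizontal axis and the other on the vertical axis; the left panel has pairs of different accession (364 genes) and the right panel pairs of the same accession (13 genes). The points of the left panel scatter around 0 with an r of 0.053, and those of the right panel have an r of 0.23.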

How the data were processed

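The authors deposited 1 ratio per probe and array on a linear scale, liver over reference; per the labels' protocols Cy5 marked liver and Cy3 the reference. The mean deposited ratio of every array is 1, and 42.4% of values are empty, 0.251% below 0 and 0.271% equal to 0. Image analysis, background correction and normalization are not given in the sources used here. A log2 of each positive deposited ratio was taken, and each array was centred on its median. Arrays identical to another were counted once, and arrays with r under 0.15 to the median array were left out. Probes needed 1 symbol, values on 70% of the A/J low-fat arrays used and on 3 arrays in each of the 5 weeks. The 70% was taken over early and late arrays together, so a probe could pass it with fewer values at 1 end. Counts of late arrays above or below every early array take only arrays with a value. Weekly means of fewer than 3 arrays were missing.

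A model of 8 levels was fitted to 20 weekly means with limma 3.58.1 (R 4.3.3), early and late in each of 4 sets, with Benjamini-Hochberg adjustment over all probes tested. Adjusted p-values in the text are from these limma fits, and they measure spread between weeks, which may be partly technical. The fit over the 4 sets takes their weekly means as independent, although the sets share weeks. Named genes are the 10 largest rises and falls among called probes whose late weekly means lie on 1 side of both early means (1 probe per gene, smallest p), the 3 members with smallest p of each list with 2 or more past the threshold, and Alb, Apoa1, Apoe, Ttr, Trf, Scd1 and Kif21a, 55 in all, 45 past the threshold. Kif21a, a kinesin, differed by 0.37 (adjusted p = 0.38). Families matched by name prefix (ribosome, proteasome, respiratory chain, translation) leave out assembly factors and other genes that only share a prefix. Lists use the most often measured probe of a gene. Comparisons with weeks 4 to 7 (other than the straight line), common spread and centring on tested probes were added after the data had been seen. The members and lists were chosen with earlier results of these data known. Of 17280 probes 14711 have 1 symbol, and for 14416 the Entrez identifier matched assembly GRCm38.p6, used for names only.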

Additional observations from a re-analysis of the deposited data

Results flagged for a closer look

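The arrays of each week were searched for a single array far from the others for each of the 55 named genes, by Dixon's gap over range at its 95% critical value. Of 275 sets of arrays 32 had such an array, 11.6%, where chance gives about 5%. Values are centred log2 ratios of the array that stood apart. At week 1 the lowest array stood apart from the others for Bnip3 (-3.17), Deptor (-2.88), Ipmk (-1.50), Lrrc74b (-1.16), Ptpn21 (-1.69), Mup5 (-0.92), Itih3 (-1.78). The highest array of week 1 did so for Zfp131 (1.75), Prom2 (2.08), Itih4 (1.81). At week 3 the lowest array stood apart from the others for Lgmn (-2.91), Deptor (-3.26), Mcpt2 (-1.75), Tcp10b (-0.13), Arfgap3 (-0.33), Gpx3 (-2.43), Uqcrq (-2.59), Mrpl50 (-2.28). The highest array of week 3 did so for Lrrc74b (5.61). At week 9 the lowest array stood apart from the others for Foxo4 (-2.27). At week 10 the lowest array stood apart from the others for Bnip3 (-1.73), Irf7 (-1.63), Gpx3 (-3.40), Mrpl46 (-2.63). The highest array of week 10 did so for Tcp10b (0.26), Atp5md (1.34). At week 11 the lowest array stood apart from the others for Hrg (-1.88), Deptor (-0.96), Irf7 (-0.048), Hspa8 (-4.06). The highest array of week 11 did so for Fut1 (0.14), F10 (1.83).

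These values fell on 18 arrays, with at most 5 on 1 of them. Lrrc74b at week 3 had its highest array at 5.61, which raises an early mean that the gene's fall is measured from. Zfp131 at week 1 had its highest array at 1.75, which lowers the gene's rise.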

How the results depend on the processing

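The count of 308 probes late against early was 159 with no centring, 1055 under quantile normalization, 81 with group medians, 1060 after scaling to a common spread, 203 with a looser probe filter, 19 with A/J low-fat weekly means alone and 2266 with single arrays as replicates; leaving out a week gave 21 to 239. It stayed within 1.5 times with low-correlation arrays kept (294), centring on the tested probes (257), a stricter filter (221) and week as a random block (420). Of those called under quantile normalization and a common spread, 300 and 290 were among the 308. Of the 55 named genes 45 passed, against 21 with no centring, 17 with group medians, 24 with the looser filter, 20 of 29 with the stricter filter, 13 with A/J low-fat means alone, and 10 to 29 without a week. The straight line gave 1 call with no centring, 12 under quantile normalization, 1 with a common spread and 0 to 17 without a week. Weeks 9 to 11 against 5 to 7 gave 145 with no centring, 51 under quantile normalization and 0 to 632 without a week; weeks 5 to 7 against 1 and 3 gave 59 to 1483 without a week. The sign changed for Alb under quantile normalization (-0.0047), for Alb and Trf with a common spread (-0.43 and -0.039), and on leaving out a week for Alb (-0.14 to 0.34) and Apoe (-1.06 to 0.59). Fewer weeks or probes enter some of these fits; otherwise the cause was not tested. Of 853 single-gene values under other settings, 570 kept direction and side of the threshold, 265 no longer passed, 13 newly passed and 5 changed sign. No paired analysis was possible because the early and late weeks hold different arrays and the labels do not say that an array number marks a mouse or batch.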
